A study of Mus musculus with 8 samples.

Results

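The immediate early and heat shock genes described here are 36 mouse genes: 25 immediate early genes, which many cell types transcribe within minutes of a stimulus, and 11 heat shock and chaperone genes. They were taken from a list of symbols and matched to Ensembl identifiers, and each matched 1 of the 27304 genes with a count in a kept cell. The cells were mouse marrow LSK cells, a fraction positive for Sca1 and cKit that is known to be rich in blood stem cells and early progenitors, profiled singly by CEL-seq2, a 3' end RNA sequencing method for sorted cells. The samples' descriptions give 1 genotype for all groups, Dach1 reporter mice in which a biotin tag precedes the Dach1 stop codon and an IRES-GFP follows it, so that GFP reports the Dach1 transcript. The mice descended from 1 targeted embryonic stem cell clone of C57BL/6 origin and were used at an age of 8 to 16 weeks. Marrow was freed of red cells, enriched for CD117 (cKit) on a magnetic column and stained before single cells were sorted into chilled 384-well plates. The labels do not say which animals contributed to a plate, so p-values reflect how much plates varied, and some of that variation may be technical. The protocol also names C57BL/6 mice as a source of marrow, and zygosity of the reporter is not stated. The plates form the LCE set (plates LCE407, LCE408, LCE409 and LCE410) and the LC set (LC187, LC188, LC189 and LC190). Within each plate, wells were ranked by the sorter's recorded fluorescence, and the outer terciles (called arms) were compared: GFP-low with GFP-high wells, and high with low wells for CD135, CD150, Sca1 and scatter. Counts were summed over the cells of an arm, and in such sums fewer cells of a type and less RNA per cell cannot be told apart.

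Immediate early genes need no new protein for their induction. Growth factor, stress and MAP kinase signals reach them through factors already present, and their products include the AP-1 proteins (Fos and Jun families), which switch on later genes, and feedback regulators that end the signal. Heat shock genes encode chaperones that fold new or damaged proteins: the inducible ones respond to the factor HSF1 through heat shock elements, Hspa5 responds to unfolded protein in the endoplasmic reticulum, and Hspa8 and Hsp90ab1 are made at a steady high level. In haematopoietic stem cells several of these genes, such as Egr1, Fos and Jund, have been linked to quiescence, and Zfp36l2 is needed for a normal stem cell pool. Tissue dissociation, staining and sorting are also known to induce both groups.

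Kept cells numbered 2716, between 336 and 341 per plate, and the median total was 5672 to 7526.5 counts per cell on LCE plates and 11586 to 13398 on LC plates. Spike-in RNA was absent from the LCE tables and made 3.25% to 4.35% of counts on LC plates. The sum of 8 stem and progenitor marker genes, among them Kit, Ly6a, Flt3 and Cd34, was at least 967 CPM (the usual unit of counts scaled to an equal total in each sum of cells) in the lower and the upper rows of every plate. In all, 116 cells carried several markers of another lineage, 62 of them of the B lineage and 31 of macrophages.

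Most of the 36 genes were sparse in single cells. A total of 11 members had at most 276 counts over all kept cells: Dusp1 had 276, Fosl2 218, Fosb 181, Gadd45b 170, Klf2 145, Egr1 120, Hspa1b 97, Klf4 65, Nr4a1 61, Hspa1a 17 and Atf3 1. These did not pass the filter on low counts in the comparisons of GFP, CD135, CD150 and Sca1, which tested the other 25 members, 16 immediate early and 9 heat shock genes. Counts within each group were unevenly spread: Zfp36l2, which binds AU-rich elements and promotes mRNA decay, held 41.2% of the counts of the immediate early genes. Hsp90ab1 and Hsp90aa1, the constitutive and the inducible cytosolic HSP90, held 40.2% and 26.9% of the counts of the heat shock genes. Egr1, the zinc finger factor often used as a readout of MAP kinase signalling, was found in 27 of 1356 LCE cells and 56 of 1360 LC cells. Hspa1a and Hspa1b, the inducible HSP70 genes, are near-identical copies, so their separate counts are uncertain.

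The first comparison set the plates side by side. Fos and Jun were far lower on LCE plates, and so were the chaperones Hsph1, Hspa5 and Hsp90aa1. Of 31 members tested, 20 differed at an adjusted p under 0.05: 2 were higher and 18 lower on LCE plates. Of all genes tested 33.7% differed, 16.2% being higher and 17.5% lower. The sets also differed in depth, spike-in content and the sorter signals recorded. The labels do not say whether the sort or the library preparation differed, and none of these can be told apart. The median log2 difference was -0.58 over the 22 immediate early genes tested, -0.72 over the 9 heat shock genes tested and -0.01 over all genes tested.

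Among the AP-1 genes, Fos had 1.45, 0, 0.476 and 0 CPM on plates LCE409, LCE407, LCE408 and LCE410, against 30.2, 32.0, 33.1 and 30.2 CPM on plates LC187, LC188, LC189 and LC190. That is 5 counts over all LCE cells and 589 over all LC cells. The sets did not overlap. Fos passed the filter on low counts through its LC counts alone. Its log2 difference of -5.69 ± 0.40 (standard error) therefore rests on near-empty LCE sums, and its size is uncertain. The edgeR adjusted p of 6.4e-08 has the same limit, and Fos is among the lower members counted above. Jun, the partner of Fos in AP-1, had 15.3, 5.98, 6.66 and 10.3 CPM on the LCE plates, against 128, 120, 102 and 96.5 CPM on the LC plates. Every LC plate lay well above every LCE plate (log2 difference -3.41 ± 0.21, adjusted p = 1.40e-08). Jun was counted in 78 of 1356 LCE cells and 840 of 1360 LC cells. Fosb had 3 counts on LCE and 178 on LC plates, a ratio of LC to LCE of 29.4 after scaling by total counts (exact 95% interval 9.90 to 144, which covers counting error only). The other AP-1 members differed less: Junb by -0.76 ± 0.20, Jund by -0.69 ± 0.17 and Fosl2 by -1.04 ± 0.30. Atf3, a stress-induced member of the same family, had 1 count in the whole study.

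The feedback and decay genes moved in both directions between the sets. Dusp2, a nuclear phosphatase of MAP kinases, was higher on LCE plates, with 147, 112, 124 and 122 CPM there and 69.3, 91.3, 57.3 and 90.5 CPM on LC plates. Nfkbia, the inhibitor of NF-kB, was also higher, with 60.3, 67.9, 87.1 and 71.9 CPM on LCE plates and 49.5, 56.7, 56.6 and 60.1 CPM on LC plates. The ranges of both genes lay apart, and the log2 differences were 0.81 ± 0.14 for Dusp2 and 0.46 ± 0.13 for Nfkbia. Lower on LCE plates were the phosphatase Dusp1 (-1.39 ± 0.36), Ppp1r15a, which restores translation after stress (-0.86 ± 0.26), the RNA-binding protein Zfp36 (-0.61 ± 0.18), the small GTPase Rhob (-0.54 ± 0.16) and Ier2 (-0.51 ± 0.17). The calls of Ier2, Zfp36, Ppp1r15a and Rhob depended on single plates. Ier2 lost its call without LC188, LC189, LCE407, LCE409 or LCE410, Zfp36 and Ppp1r15a lost theirs without LC188 or LCE409, and Rhob lost its own without LCE407 or LCE409. Zfp36l2, the most counted immediate early gene, did not pass the test: it had 379, 385, 344 and 466 CPM on LCE plates and 411, 469, 423 and 433 CPM on LC plates.

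Of the heat shock genes, Hspa5, the HSP70 of the endoplasmic reticulum, had 180, 134, 125 and 128 CPM on the LCE plates, against 595, 528, 561 and 633 CPM on the LC plates (log2 difference -1.93 ± 0.12, adjusted p = 2.10e-08). Hsph1, an HSP110 that recharges HSP70, had 14.2, 15.8, 19.5 and 20.7 CPM on LCE plates, against 95.8, 72.4, 84.7 and 84.9 CPM on LC plates (-2.18 ± 0.15, adjusted p = 5.74e-08). Hsp90aa1 had 753, 678, 527 and 576 CPM on LCE plates, against 2208, 1797, 1761 and 1821 CPM on LC plates (-1.48 ± 0.12). In each of these 3 genes the sets were separated by a wide gap. Hspa8 (-0.75 ± 0.11), Hsp90ab1 (-0.72 ± 0.09), the mitochondrial chaperonin Hspd1 (-0.62 ± 0.11) and its lid Hspe1 (-0.52 ± 0.10) fell by less. The HSP40 co-chaperones Dnaja1 and Dnajb1 did not pass the test. Dnaja1 had 101 to 142 CPM on LCE plates and 148 to 180.3 CPM on LC plates, and Dnajb1 had 41.8 to 56.4 CPM on LCE plates and 52.4 to 59.1 CPM on LC plates. Hspa1b had 2 counts on LCE and 95 on LC plates (LC to LCE ratio 23.5, exact 95% interval 6.34 to 197), and Hspa1a had 0 and 17 counts. Against a floor of 3 counts over the LCE set, Hspa1a was at least 2.81-fold lower there. The summed level of the 11 heat shock genes was 2835 to 3560 CPM on LCE plates and 6320 to 7329 on LC plates. The summed level of the 25 immediate early genes was closer, at 824 to 945 CPM on LCE plates and 1039 to 1185 on LC plates.

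**Figure D1:**
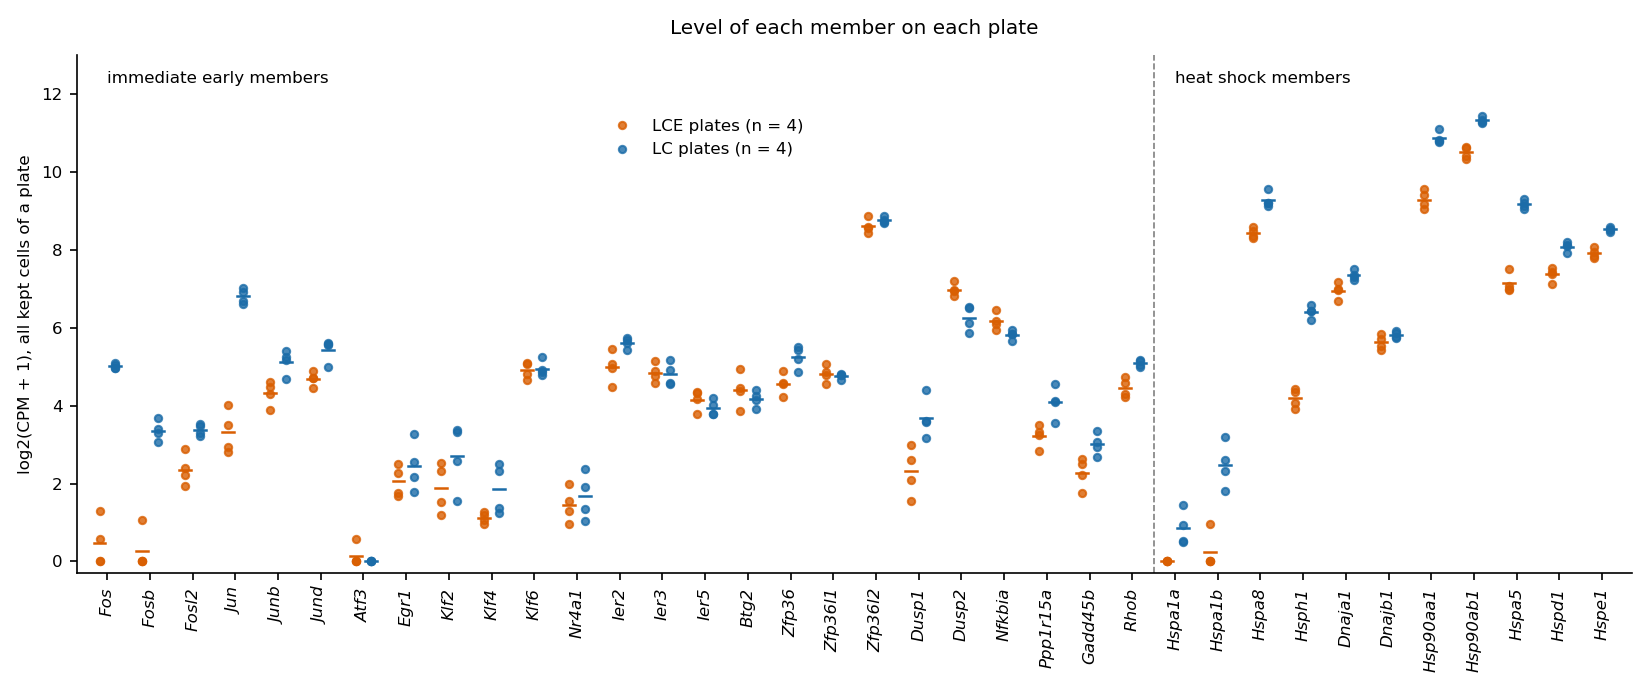
Level of each of the 36 genes as log2(CPM + 1), with 1 point per plate, bars at the mean of a set, and the 4 LCE plates left of the 4 LC plates. Fos, Jun, Hsph1 and Hspa5 show a clear gap between the sets, whereas the points of Klf6, Ier3 and Btg2 overlap.

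Of each list of related genes outside the 36, up to 3 genes per direction with the smallest adjusted p are named. In a list of other chaperone genes, 2 of 35 tested were higher and 20 lower on LCE plates, the lower ones including Hsp90b1 (-1.61 ± 0.12), Dnajc3 (-1.10 ± 0.13) and Stip1 (-1.04 ± 0.12). Dnajc7 (0.67 ± 0.12) and Ubb (0.46 ± 0.09) were the 2 higher ones. In a list of unfolded protein response genes, 0 of 14 were higher and 10 were lower, among them the calcium-binding chaperone Calr (-1.79 ± 0.11), Sdf2l1 (-2.14 ± 0.18) and Hyou1 (-2.23 ± 0.20). In a list of other immediate early genes 8 of 28 were higher, among them Klf10 (1.20 ± 0.18), Id3 (2.22 ± 0.40) and Irf1 (0.70 ± 0.13), and 3 were lower, Id1 (-4.02 ± 0.75), Klf9 (-1.11 ± 0.21) and Trib1 (-1.51 ± 0.43).

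The promoters of 30 members were found in the RefSeq table for GRCm38.p6, as windows from 250 bases before to 50 after the start. The other 6, Egr1, Ier2, Zfp36l2, Hspa8, Hsp90aa1 and Hsp90ab1, had no entry there, so their motifs are unknown here. The promoters of 5 genes are shown, which hold a match to a motif searched and whose levels differed above or differ below. The letters in capitals are the matches, found on either strand. Only the motifs named below were searched, so letters in lower case can hold other elements. A match does not show that the site regulates the gene.
Jun, chr4:95052173-95052472, minus strand, with a heat shock core: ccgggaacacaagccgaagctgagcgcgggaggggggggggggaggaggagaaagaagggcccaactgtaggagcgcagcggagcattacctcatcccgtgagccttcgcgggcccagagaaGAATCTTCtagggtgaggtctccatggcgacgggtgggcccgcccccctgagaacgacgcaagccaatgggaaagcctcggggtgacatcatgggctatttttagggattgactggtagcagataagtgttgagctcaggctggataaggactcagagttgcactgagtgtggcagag
Btg2, chr1:134079106-134079405, minus strand, with a cyclic AMP response element: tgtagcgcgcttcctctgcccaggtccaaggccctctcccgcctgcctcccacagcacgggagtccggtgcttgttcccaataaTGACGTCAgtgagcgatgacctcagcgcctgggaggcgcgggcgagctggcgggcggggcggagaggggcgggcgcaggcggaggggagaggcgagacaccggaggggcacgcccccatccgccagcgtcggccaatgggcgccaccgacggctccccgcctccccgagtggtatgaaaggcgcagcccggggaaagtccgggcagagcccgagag
Hsph1, chr5:149636287-149636586, minus strand, with heat shock cores: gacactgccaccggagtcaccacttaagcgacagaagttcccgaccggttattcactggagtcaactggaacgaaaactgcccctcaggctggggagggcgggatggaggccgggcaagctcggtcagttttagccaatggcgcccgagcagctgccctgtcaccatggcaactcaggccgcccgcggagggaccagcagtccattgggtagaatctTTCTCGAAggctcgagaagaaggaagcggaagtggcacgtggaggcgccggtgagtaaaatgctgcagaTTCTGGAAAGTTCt
Hspa5, chr2:34771840-34772139, plus strand, with an AP-1 site: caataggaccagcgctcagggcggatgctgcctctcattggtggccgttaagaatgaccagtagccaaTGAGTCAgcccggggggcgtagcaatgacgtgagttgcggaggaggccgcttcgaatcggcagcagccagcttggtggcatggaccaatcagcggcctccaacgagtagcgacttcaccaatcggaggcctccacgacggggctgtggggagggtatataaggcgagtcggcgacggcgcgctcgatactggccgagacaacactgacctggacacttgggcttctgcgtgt
Hspe1, chr1:55087898-55088197, plus strand, with heat shock cores: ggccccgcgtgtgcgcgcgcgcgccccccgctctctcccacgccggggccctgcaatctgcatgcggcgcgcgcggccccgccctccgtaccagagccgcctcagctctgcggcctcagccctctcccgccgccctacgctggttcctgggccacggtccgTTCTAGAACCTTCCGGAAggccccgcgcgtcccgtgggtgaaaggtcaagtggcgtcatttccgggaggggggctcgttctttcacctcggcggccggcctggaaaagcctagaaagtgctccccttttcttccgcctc

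The heat shock core (GAANNTTC or TTCNNGAA) was present in 6 of the 8 heat shock members with a promoter (Hspa1a, Hspa1b, Hsph1, Dnaja1, Hspd1 and Hspe1) and in 2 of 22 immediate early members (Fosl2 and Jun), against 17% of all genes (15.1% of all promoter windows, since some genes have several). Overlapping matches of the core form the element of 3 units, which occurred in Hsph1, Hspd1 and Hspe1 and in 0.662% of all genes (0.603% of windows). The windows of Hspd1 and Hspe1 overlap on opposite strands, so the same letters were found for both. The AP-1 site (TGANTCA, 8.97% of all genes and 7.81% of windows) was present in Zfp36l1 and Hspa5, the cyclic AMP response element (TGACGTCA, 2.03% of genes and 1.79% of windows) in Btg2, Dusp1 and Ppp1r15a, and the CArG box, bound by serum response factor, in Zfp36 (1.81% of genes and 1.63% of windows). These matches describe the letters of the windows.

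Across Dach1-GFP, the immediate early genes divided. Btg2, Rhob, Ier5, Zfp36l1 and Dusp2 were higher in GFP-low wells and Zfp36l2 was lower, while Hspe1, Hspa5 and Hsp90ab1 rose slightly. Of 25 members tested 8 were higher and 1 lower in GFP-low wells. Of all genes tested 7.9% differed, 3.86% being higher and 4.04% lower. The median log2 difference of GFP-low against GFP-high wells was 0.20 over the 16 immediate early genes tested, 0.07 over the 9 heat shock genes tested and 0.00 over all genes tested.

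Btg2, an antiproliferative protein that recruits the deadenylase complex, had 19.1, 26.3 and 53.5 CPM in GFP-low wells (lowest, median and highest plate) and 1.38, 15.6 and 19.98 CPM in GFP-high wells. It was higher in GFP-low wells on 8 of 8 plates, with a small overlap between plates (log2 difference 1.004 ± 0.18, adjusted p = 6.15e-05). Rhob had 21.3, 33.4 and 52.1 CPM in GFP-low wells and 10.7, 20.8 and 31.4 CPM in GFP-high wells (0.80 ± 0.16, adjusted p = 0.000179). Dusp2 had 76.4, 113 and 170 CPM in GFP-low wells and 55.2, 85.9 and 133 CPM in GFP-high wells (0.41 ± 0.09, adjusted p = 0.000434). Both were higher in GFP-low wells on 8 of 8 plates, and the ranges overlapped. Zfp36l1, a decay factor of the same family as Zfp36l2, had 30.9, 33.6 and 37.5 CPM in GFP-low wells and 21.7, 24.4 and 30.6 CPM in GFP-high wells, with no overlap (0.50 ± 0.14, adjusted p = 0.0194). Zfp36l2 itself ran the other way, with 307, 377 and 416 CPM in GFP-low wells and 361, 451 and 501 CPM in GFP-high wells. It was lower in GFP-low wells on 8 of 8 plates (-0.21 ± 0.04, adjusted p = 0.000268). Ier5, whose product is linked to HSF1 activity, was higher by 0.67 ± 0.20 on 8 of 8 plates.

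The heat shock differences by GFP were small: Hspe1 0.18 ± 0.05, Hspa5 0.16 ± 0.05 and Hsp90ab1 0.07 ± 0.02 on the log2 scale. Each lost its call when any of 4 plates was left out: LC187, LC188, LC190 or LCE407 for Hspe1, LC188, LC189, LC190 or LCE409 for Hspa5, and LC190, LCE407, LCE409 or LCE410 for Hsp90ab1. Ier5 lost its call without LC187 or LC188, and Zfp36l1 without LC187 or LC190. The calls of Btg2, Rhob, Dusp2 and Zfp36l2 held with any 1 plate left out. B-lineage cells were unevenly placed, with 61 in GFP-low and 1 in GFP-high wells, and the summed level of 8 B-lineage markers was 28.5 to 781 CPM in GFP-low and 21.1 to 148 CPM in GFP-high sums. Marker genes of mast cells and basophils summed to 78.1 to 103 CPM in GFP-low and 160 to 355 CPM in GFP-high sums, and those of platelets and megakaryocytes to 16.2 to 52.2 CPM in GFP-low and 59.9 to 185 CPM in GFP-high sums, both without overlap. The part of these markers in the GFP results was not tested. Without the cells of other lineages 8 members differed, and Zfp36l1 was the one that lost its call. With the LCE plates alone 5 members differed and with the LC plates alone 7, and the share of all genes called in each set is not given here. In a fit with a term for the set of plates, no member's GFP difference was unlike between the sets, against 13 of 10364 genes tested.

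In the lists of related genes, 6 of 20 other immediate early genes were higher in GFP-low wells, among them Id2, an inhibitor of helix-loop-helix factors (1.75 ± 0.26), the ERK phosphatase Dusp5 (1.25 ± 0.24) and Nfkbiz (1.03 ± 0.26). Cited2, a transcriptional coregulator needed by stem cells, was the 1 that was lower (-0.75 ± 0.11). In the list of other chaperones, Dnajc3 (0.26 ± 0.09) was higher and Ubb (-0.13 ± 0.03) was lower. Calr (-0.25 ± 0.04) was the 1 unfolded protein response gene of 13 that passed the test.

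**Figure D2:**
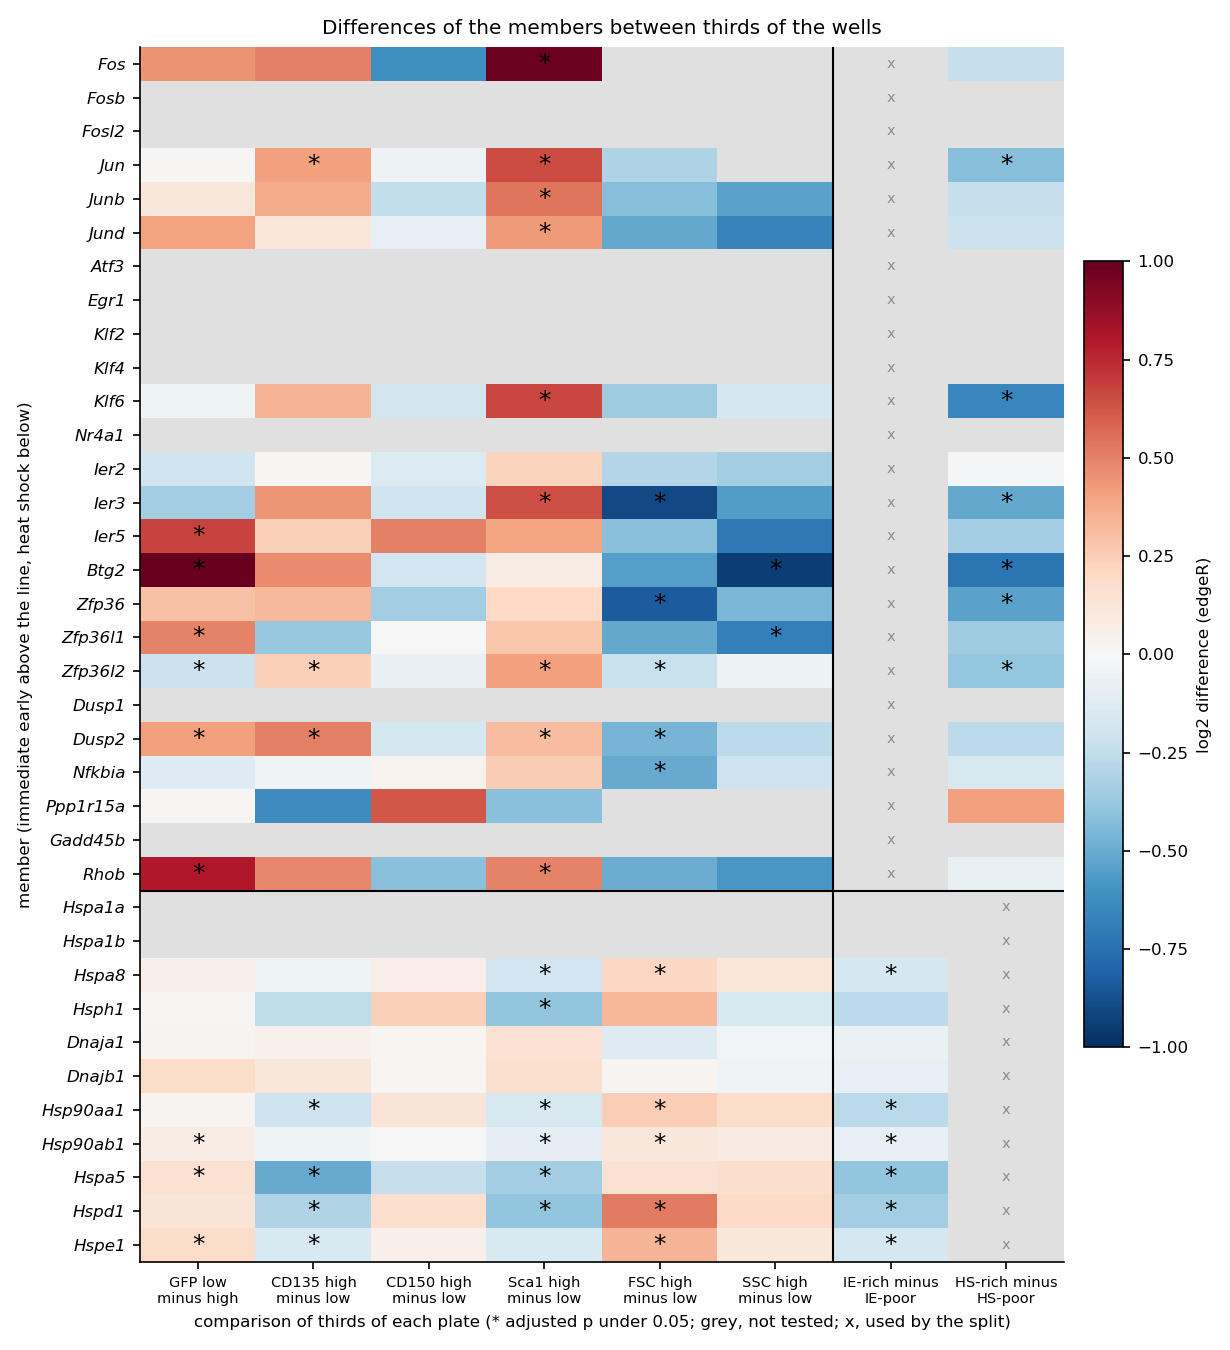
Log2 differences (edgeR) of each member by comparison, where red is higher and blue lower in the arm named first, a star marks an adjusted p under 0.05, grey was not tested and x was used by the split. The Sca1 column shows 9 immediate early genes higher and 6 heat shock genes lower with a star, and the CD150 column has no star.

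By CD135, the cytokine receptor Flt3 that marks multipotent and lymphoid-primed progenitors, 3 immediate early genes were higher in CD135-high wells and 4 heat shock genes lower, of 25 tested. Of all genes tested 11.1% differed, 6.08% being higher and 5.02% lower. Dusp2 had 76.3, 117 and 154 CPM in CD135-high wells (lowest, median and highest plate) and 41.4, 86.2 and 138 CPM in CD135-low wells, and was higher on 8 of 8 plates (0.50 ± 0.09, adjusted p = 0.000161). Jun had 4.77, 57.1 and 149 CPM in CD135-high wells and 2.75, 42.6 and 109 CPM in CD135-low wells, and was higher on 7 of 8 plates (0.41 ± 0.11). Zfp36l2 had 325, 457 and 485 CPM in CD135-high wells and 330, 364 and 442 CPM in CD135-low wells, and was higher on 6 of 8 plates (0.24 ± 0.05, adjusted p = 0.000712). The wide ranges of Jun follow the gap between the sets of plates described above.

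The chaperones that fell in CD135-high wells belong to the endoplasmic reticulum, the cytosol and the mitochondrion. Hspa5 had 117, 295 and 513 CPM in CD135-high wells and 134, 392 and 847 CPM in CD135-low wells (-0.50 ± 0.07, adjusted p = 2.99e-07). Hspd1 had 114, 192 and 257 CPM in CD135-high wells and 161, 240 and 372 CPM in CD135-low wells, and was lower on 8 of 8 plates (-0.30 ± 0.06, adjusted p = 0.000357). Hsp90aa1 had 489, 1132 and 2149 CPM in CD135-high wells and 593.5, 1382 and 2402 CPM in CD135-low wells (-0.21 ± 0.03, adjusted p = 8.30e-06). Hspa5 and Hsp90aa1 were lower on 7 of 8 plates, and the ranges of all these genes overlapped between arms. Hspe1 (-0.15 ± 0.05) lost its call when LC187, LC188, LC189, LC190, LCE408 or LCE409 was left out, and the other 6 calls held with any 1 plate left out.

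Of 14 unfolded protein response genes tested, 5 were not called, 0 were higher and 9 were lower in CD135-high wells, the lower ones including Calr (-0.75 ± 0.05), Sdf2l1 (-1.01 ± 0.14) and Manf (-0.47 ± 0.09). Of 34 other chaperones 4 were lower, among them the endoplasmic reticulum chaperones Hsp90b1 (-0.52 ± 0.06), Dnajb11 (-0.50 ± 0.15) and Dnajc3 (-0.31 ± 0.09). Of 20 other immediate early genes 6 were higher, among them the cell cycle inhibitor Cdkn1a (1.0002 ± 0.18), Dusp5 (1.28 ± 0.24) and Arid5a (0.80 ± 0.17), and 2 were lower, Cited2 (-0.62 ± 0.10) and Klf9 (-0.86 ± 0.19). In a fit with a term for the set, the CD135 difference of Hspa5 was -0.10 on LCE and -0.65 on LC plates, and these differed by 0.55 ± 0.12 (adjusted p = 0.0142). That of Zfp36l2 was 0.04 on LCE and 0.38 on LC plates, a difference of -0.33 ± 0.08 (adjusted p = 0.0370). These were the 2 members called of 25 in that fit, against 71 of 10390 genes tested. With LCE plates alone 1 member differed by CD135, and with LC plates alone 8, and the share of all genes called in each set is not given here. Mast cell and basophil markers summed to 65.6 to 112 CPM in CD135-high and 184 to 360 CPM in CD135-low sums, and platelet and megakaryocyte markers to 15.7 to 43.0 CPM in CD135-high and 57.8 to 175 CPM in CD135-low sums, both without overlap, and their part in the CD135 results was not tested. B-lineage cells numbered 6 in CD135-high and 41 in CD135-low wells, and without cells of other lineages 8 members differed.

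By CD150, the stem cell marker Slamf1, 0 of 25 members tested differed in edgeR, against 2.02% of all genes tested (1.49% higher, 0.53% lower). At an unadjusted p under 0.05 there were 8 members, and DESeq2 called 0. Hsp90aa1 came nearest, with 569, 1269 and 2257 CPM in CD150-high wells and 442, 1163 and 2156 CPM in CD150-low wells (0.13 ± 0.04, adjusted p = 0.0572). The differences of the 25 members lay between -0.62 and 0.62. With LCE plates alone 2 members were called, and the share of all genes called there is not given here. Macrophage-marked cells numbered 28 in CD150-high and 1 in CD150-low wells, and without cells of other lineages 0 members differed.

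Sca1 is the surface protein encoded by Ly6a. In Sca1-high wells 9 of 16 immediate early genes tested were higher and 0 lower, and 6 of 9 heat shock genes tested were lower and 0 higher, while 11.8% of all genes tested differed (5.6% higher, 6.2% lower). The median log2 difference was 0.40 over the 16 immediate early genes tested and -0.16 over the 9 heat shock genes tested. The summed level of the immediate early genes was 857, 1166 and 1431 CPM in Sca1-high wells (lowest, median and highest plate) and 790, 841 and 1082 CPM in Sca1-low wells, and was higher on 8 of 8 plates. Zfp36l2, with 41.2% of the counts of these genes, weighs heavily in this sum, and its own values are given below. The summed level of the heat shock genes was 2677, 4610 and 6872 CPM in Sca1-high wells and 2976, 5217 and 7390 CPM in Sca1-low wells, and was lower on 8 of 8 plates.

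Fos had 0, 21.5 and 56.7 CPM in Sca1-high wells and 0, 8.95 and 28.7 CPM in Sca1-low wells (0.98 ± 0.20, adjusted p = 0.000359). Its lowest values come from LCE plates, where Fos had 5 counts in all. Jun had 5.501, 63.0 and 189.2 CPM in Sca1-high wells and 2.50, 45.7 and 101 CPM in Sca1-low wells (0.65 ± 0.11, adjusted p = 1.39e-05), and was higher on 6 of 8 plates. Klf6, a zinc finger transcription factor, had 27.1, 33.1 and 52.4 CPM in Sca1-high wells and 17.6, 23.6 and 28.9 CPM in Sca1-low wells (0.67 ± 0.16). Ier3, a modulator of cell survival, had 19.3, 33.9 and 43.3 CPM in Sca1-high wells and 16.96, 21.4 and 29.7 CPM in Sca1-low wells (0.65 ± 0.16). Both were higher on 7 of 8 plates, and their arms overlapped. Zfp36l2 had 372, 516 and 559 CPM in Sca1-high wells and 308, 355 and 446 CPM in Sca1-low wells, and was higher on 8 of 8 plates (0.41 ± 0.05, adjusted p = 1.09e-09). Junb (0.53 ± 0.15), Rhob (0.50 ± 0.15), Jund (0.43 ± 0.14) and Dusp2 (0.31 ± 0.08) were the other higher members. Junb lost its call without LC189 or LC190, Jund without any 1 of the 4 LC plates, and Rhob without LC188, LC189, LC190 or LCE409.

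Among the chaperones, Hspd1 had 103, 178 and 251 CPM in Sca1-high wells and 165, 251 and 312 CPM in Sca1-low wells (-0.39 ± 0.06, adjusted p = 2.83e-06). Hspa8 had 287, 445 and 698 CPM in Sca1-high wells and 310, 497 and 801 CPM in Sca1-low wells (-0.19 ± 0.04, adjusted p = 0.000515). Both were lower in Sca1-high wells on 8 of 8 plates. Hspa5 had 107, 292 and 552 CPM in Sca1-high wells and 127, 372 and 710 CPM in Sca1-low wells (-0.34 ± 0.05, adjusted p = 1.44e-06), and was lower on 7 of 8 plates. Hsph1 (-0.39 ± 0.12), Hsp90aa1 (-0.16 ± 0.03) and Hsp90ab1 (-0.09 ± 0.02) were also lower, and Hsph1 lost its call without LC188 or LC190. Sca1-high wells held fewer counts, with plate medians of 5100 to 11813 per cell against 6331 to 15051.5 in Sca1-low wells. When Sca1 ranks were corrected for the rank of the total count, 6 members differed: Fos and Zfp36l2 were higher, and Hspa8, Hspd1, Hspa5 and the immediate early gene Ppp1r15a (-0.94) lower. With LCE plates alone 3 members differed and with LC plates alone 14, and the share of all genes called in each set is not given here. In the fit with a term for the set, no member's Sca1 difference was unlike between the sets, against 14 of 10174 genes tested. B-lineage cells numbered 3 in Sca1-high and 41 in Sca1-low wells, and without cells of other lineages 13 members differed.

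Of the list of unfolded protein response genes, 6 of 13 were lower in Sca1-high wells, among them Calr (-0.61 ± 0.05), Sdf2l1 (-0.67 ± 0.15) and Hyou1 (-0.86 ± 0.19), and Ddit4 (0.73 ± 0.25) was higher. Of 34 other chaperones, 6 were lower, among them Hsp90b1 (-0.31 ± 0.06), Fkbp4 (-0.33 ± 0.07) and the chaperonin subunit Tcp1 (-0.23 ± 0.06), and Hspbp1 (0.38 ± 0.11) was higher. Of 20 other immediate early genes, Nfkbiz (1.13 ± 0.25), Csrnp1 (0.87 ± 0.21) and Tob1 (0.94 ± 0.27) were higher, and Myc (-0.31 ± 0.06) and Cdkn1a (-0.80 ± 0.17) were lower.

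**Figure D3:**
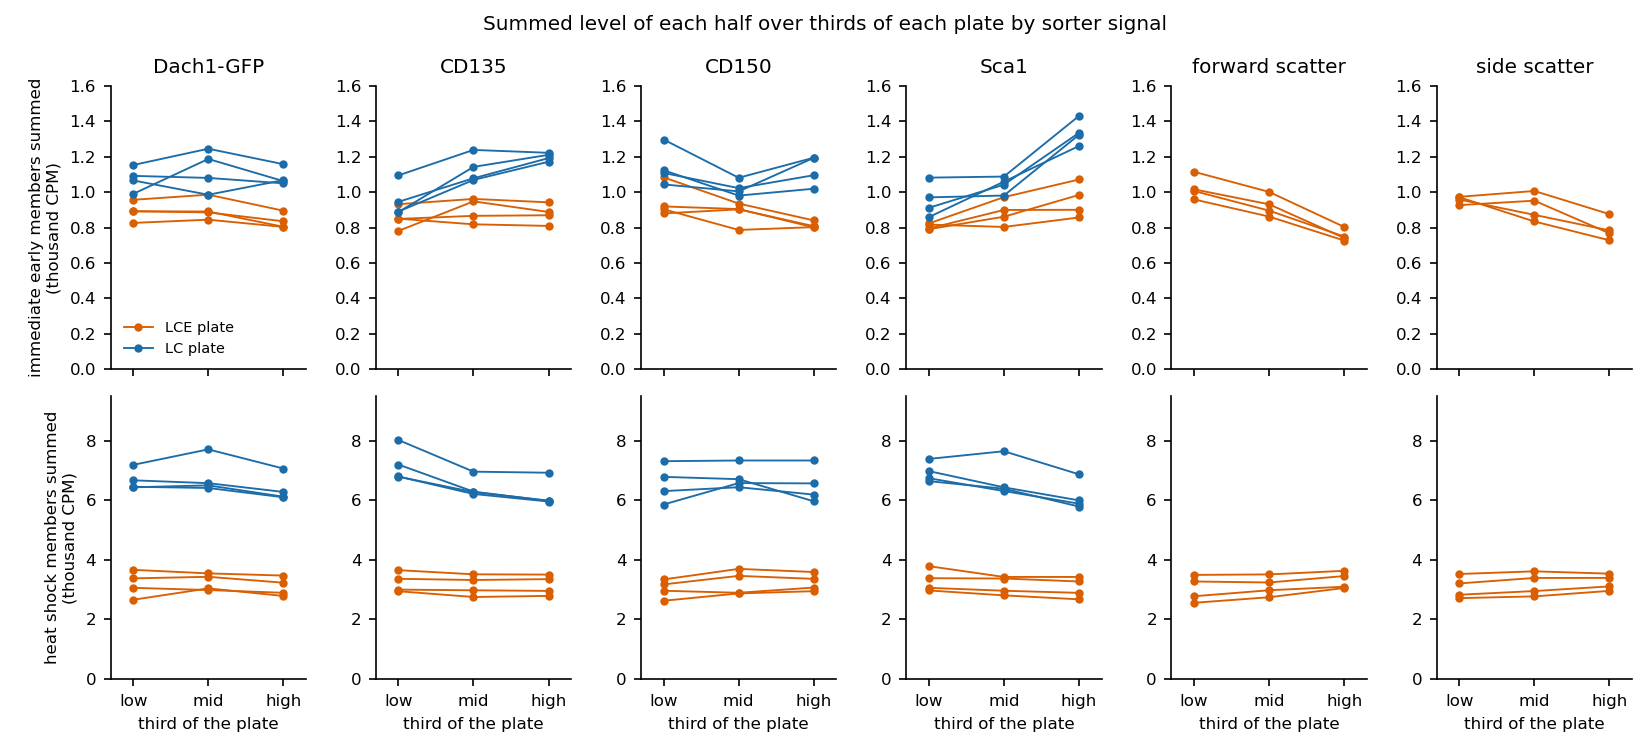
Summed levels of the immediate early members (upper panels) and the heat shock members (lower panels), in CPM (axis in multiples of 1000), over the low, middle and high tercile of each plate by sorter signal, with 1 line per plate. By Sca1 the immediate early sum averaged 881, 963 and 1146 CPM in the low, middle and high tercile and the heat shock sum 5121, 4920 and 4603 CPM.

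Forward scatter, a measure of cell size, was recorded for the LCE plates. In FSC-high wells 5 heat shock genes were higher and 5 immediate early genes lower, of 23 members tested, while 19.1% of all genes tested differed (11.5% higher, 7.56% lower). Hspd1 had 217, 185, 204 and 160 CPM in FSC-high wells of plates LCE407, LCE408, LCE409 and LCE410, and 120, 137, 173 and 119 CPM in FSC-low wells of the same plates (0.52 ± 0.10, adjusted p = 1.51e-05). Hspe1 had 282, 248, 294 and 237 CPM in FSC-high wells and 207, 198, 252 and 210 CPM in FSC-low wells (0.34 ± 0.09). Both were higher in FSC-high wells on 4 of 4 plates. Hsp90aa1 (0.25 ± 0.06), Hspa8 (0.21 ± 0.07) and Hsp90ab1 (0.11 ± 0.04) were the others. Dusp2 had 83.2, 116, 128 and 95.2 CPM in FSC-high wells and 131, 146, 176 and 152 CPM in FSC-low wells, with no overlap (-0.47 ± 0.12, adjusted p = 0.000820). Nfkbia had 55.8, 74.5, 51.3 and 60.2 CPM in FSC-high wells and 80.2, 103, 86.0 and 84.1 CPM in FSC-low wells, also with no overlap (-0.50 ± 0.15). Ier3 (-0.90 ± 0.24), Zfp36 (-0.83 ± 0.27) and Zfp36l2 (-0.23 ± 0.07) were lower on each of the 4 plates.

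Larger cells also gave more counts, with plate medians of 7874.5 to 10256 in FSC-high wells against 4646.5 to 6033.5 in FSC-low wells. The summed level of 8 genes of dividing cells was 691 to 961 CPM in FSC-high and 231 to 490 CPM in FSC-low sums, and its part in the result was not tested. When FSC ranks were corrected for total counts 0 of 22 members tested differed. The share of all genes that differed under this correction is not given here. Calls of Hspd1, Hspe1, Hsp90aa1 and Dusp2 held with any 1 plate left out. Ier3 and Nfkbia lost theirs without LCE409, Zfp36 and Hspa8 without LCE407 or LCE408, Zfp36l2 without LCE407 or LCE410, and Hsp90ab1 without LCE408 or LCE410. By side scatter, a measure of granularity, Btg2 (-0.94 ± 0.26) and Zfp36l1 (-0.68 ± 0.22) were lower in SSC-high wells, of 22 members tested, while 7.72% of all genes tested differed (5.44% higher, 2.28% lower). Btg2 had 8.35 to 20.2 CPM in SSC-high wells and 21.9 to 47.4 CPM in SSC-low wells, with no overlap, and lost its call without LCE408 or LCE410. Zfp36l1 lost its call without any 1 of the 4 plates. Genes of dividing cells summed to 714 to 963 CPM in SSC-high and 266 to 533 CPM in SSC-low sums, without overlap, and their part in the result was not tested. B-lineage cells numbered 3 in SSC-high and 24 in SSC-low wells, and 0 members differed once SSC ranks were corrected for total counts.

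The position on the plate gave no call. Of 25 members tested 0 differed between the lower and the upper rows in edgeR, against 0.0972% of all genes tested (0.0194% higher, 0.0777% lower), with 2 members at an unadjusted p under 0.05 and 0 called by DESeq2. Rhob came nearest, with 12.7, 35.6 and 44.2 CPM in the lower rows and 17.1, 22.9 and 36.3 CPM in the upper rows (0.50 ± 0.16, adjusted p = 0.5995).

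A joint fit held each marker with the other 3, on 117 sums of at least 5 cells split at the plate medians of GFP, CD135, CD150 and Sca1. Up to 16 sums came from 1 plate, so the p-values of this fit rest largely on the spread between sums within plates and may be too small. Of 24 members tested, 6 differed by GFP, while 7.63% of all genes tested did (3.83% higher, 3.8% lower): Btg2 (0.56 ± 0.18), Rhob (0.58 ± 0.16), Hspa5 (0.32 ± 0.06), Hspd1 (0.31 ± 0.06) and Hspe1 (0.21 ± 0.05) were higher on the GFP-low side and Zfp36l2 (-0.29 ± 0.05) was lower. Dusp2 (0.07 ± 0.09), Ier5 (0.38 ± 0.21), Zfp36l1 (0.46 ± 0.16) and Hsp90ab1 (0.05 ± 0.03), called with GFP taken alone, were not called jointly. By CD135 6 differed, while 8.65% of all genes tested did (4.01% higher, 4.64% lower): Dusp2 (0.36 ± 0.09) and Zfp36l2 (0.25 ± 0.05) were higher on the CD135-high side, and Hspa5 (-0.52 ± 0.06), Zfp36l1 (-0.49 ± 0.16), Hspd1 (-0.23 ± 0.06) and Hsp90aa1 (-0.18 ± 0.04) were lower. By Sca1 8 differed, while 4.78% of all genes tested did (2.16% higher, 2.61% lower): Fos (0.66 ± 0.18), Ier3 (0.51 ± 0.16), Klf6 (0.45 ± 0.13), Jun (0.42 ± 0.11), Jund (0.40 ± 0.12) and Zfp36l2 (0.20 ± 0.05) were higher on the Sca1-high side, and Hspd1 (-0.24 ± 0.06) and Hspa8 (-0.15 ± 0.04) were lower. Dusp2 (0.05 ± 0.08), Junb, Rhob, Hspa5, Hsph1, Hsp90aa1 and Hsp90ab1, called with Sca1 taken alone, were not called jointly. By CD150 0 of 24 differed in edgeR, against 1.21% of all genes tested (1.06% higher, 0.147% lower), with 2 at an unadjusted p under 0.05. Hspa5 thus had opposite signs for the GFP-low and the CD135-high side of the same fit, and so did Hspd1 and Zfp36l2. With LCE plates alone the counts were 1 for GFP, 1 for CD135 and 0 for Sca1, and with LC plates alone they were 5, 6 and 4. The share of all genes called in each set alone is not given here.

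**Figure D4:**
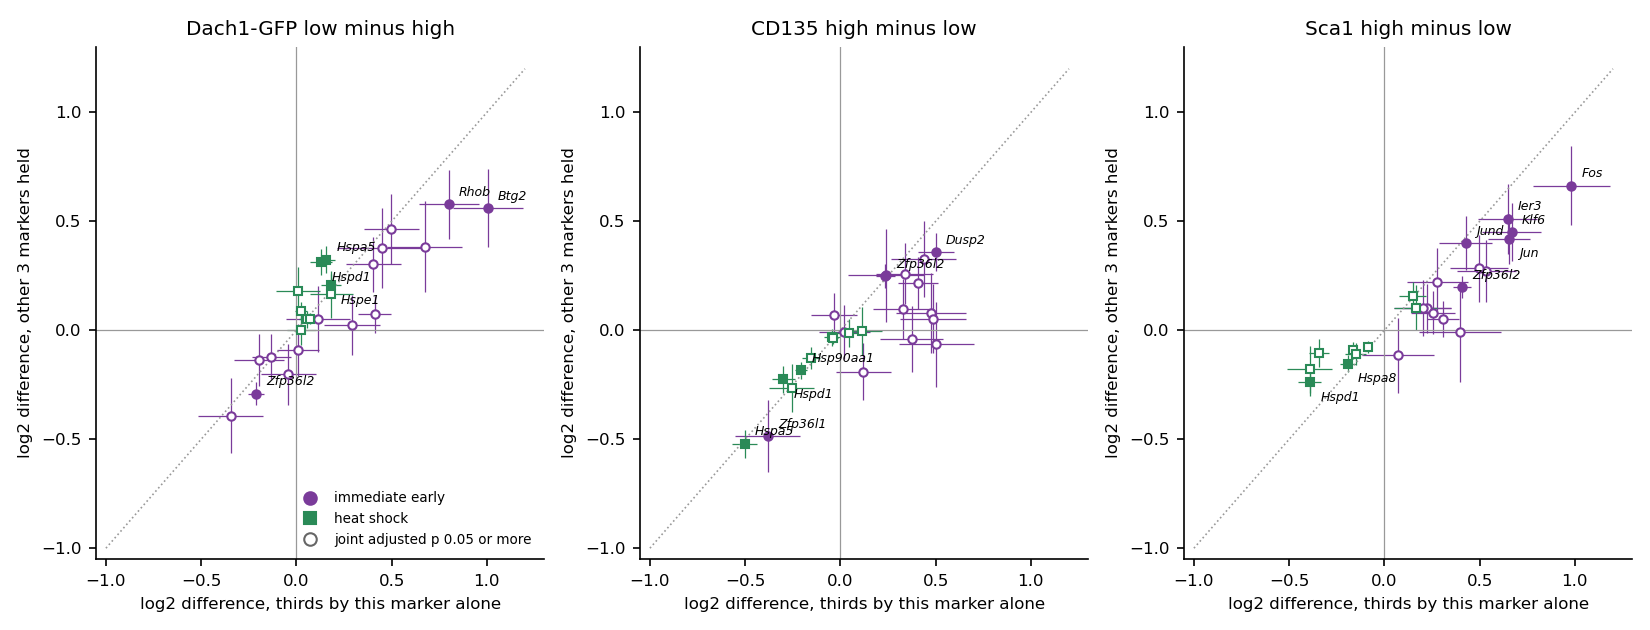
Log2 differences of the members in the joint fit (vertical axis) against those with each marker taken alone (horizontal axis), with bars of 1 standard error, for GFP, CD135 and Sca1; filled points passed the joint test. Fos is at 0.66 jointly and 0.98 alone by Sca1, and Hspa5 at -0.52 jointly and -0.50 alone by CD135.

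The last comparisons asked whether the 2 groups of genes go together in a well. Each cell was thinned to 3000 counts, which 2676 cells reached, and the thinned counts of each group were summed. The median well held 3 counts of immediate early genes and 17 to 21 of heat shock genes on LC plates, and 2 to 3 and 8 to 10 on LCE plates. Across wells of a plate the Spearman correlation of the 2 sums was below 0 on 8 of 8 plates, at -0.133 to -0.017 on LCE plates (326 to 333 wells) and -0.179 to -0.114 on LC plates (339 to 340 wells). Without Zfp36l2 in the immediate early sum it was below 0 on 7 of 8 plates and 0.030 on LCE410. The wells of a plate share a library. Thinning fixes the total of each well at 3000 counts, of which the 2 sums were a small part. Their plate means were 2.51 to 3.83 counts for the immediate early genes and 8.15 to 21.7 for the heat shock genes. The part of the fixed total in the correlation was not tested. Both sums also moved with the total count of the well: the immediate early sum with correlations of -0.383 to -0.195, and the heat shock sum with 0.110 to 0.344. Corrected for the rank of the total count, the correlation of the 2 sums was -0.083 to 0.029 on LCE plates, above 0 on 2 of them, and -0.083 to -0.040 on LC plates.

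Of 890 wells in the top tercile of immediate early counts, 248 (27.9%) were also in the top tercile of heat shock counts, and 348 (39.1%) were in the lowest. Single pairs of genes gave weak correlations, which in counts this sparse are descriptions. On LC plates, where 20 members were counted in at least 20 wells of each plate, the highest means over plates were Hsp90aa1 with Hspa5 (0.112), Hsp90aa1 with Hsp90ab1 (0.108), Jun with Rhob (0.084) and Fos with Jun (0.083). The lowest were Zfp36l2 with Hsp90aa1 (-0.106) and Jun with Hspa5 (-0.080). Of 99 pairs of 1 immediate early and 1 heat shock gene on LC plates, the mean was above 0 in 29 and below 0 in 70. Within the groups it was above 0 in 41 of 55 immediate early pairs and 29 of 36 heat shock pairs. On LCE plates, with 12 members, the mean was above 0 in 13 and below 0 in 19 of 32 pairs between the groups. Within the groups there it was above 0 in 3 of 6 immediate early pairs and 22 of 28 heat shock pairs.

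Wells rich in immediate early counts were compared with wells poor in them, as outer terciles of the thinned sum. Ties were broken by the unthinned share of counts. The variance of the immediate early sum was 1.14 to 1.27 times its mean on LCE plates and 1.66 to 2.16 times on LC plates. For the heat shock sum it was 1.18 to 1.29 and 1.75 to 2.34 times. Counting error alone gives a ratio of about 1, so the splits hold more counting error on LCE plates. Of 9 heat shock genes tested, 6 were lower and 0 higher in immediate-early-rich wells, while 13.4% of all genes tested differed (5.87% higher, 7.49% lower). Hspa5 had 116, 308 and 516 CPM in rich wells (lowest, median and highest plate) and 114, 393 and 764 CPM in poor wells (-0.40 ± 0.06, adjusted p = 1.30e-06). Hspd1 had 133, 195 and 268 CPM in rich wells and 152, 233 and 331 CPM in poor wells, and was lower in rich wells on 8 of 8 plates (-0.35 ± 0.06, adjusted p = 2.44e-05). Hsp90aa1 had 456, 1131 and 2019 CPM in rich wells and 605, 1349 and 2329 CPM in poor wells, and was lower on 7 of 8 plates (-0.27 ± 0.03, adjusted p = 2.47e-08). Hspa8 (-0.18 ± 0.04), Hspe1 (-0.18 ± 0.05) and Hsp90ab1 (-0.08 ± 0.03) were lower too, and Hsp90ab1 lost its call without any 1 of the LC plates and Hspe1 without LC187, LC188 or LCE408. With LCE plates alone Hsp90aa1 (-0.23) was the 1 call, while Hspd1 differed by -0.27, Hspe1 by -0.20, Hspa8 by -0.07, Hsp90ab1 by -0.03 and Hspa5 by 0.02. With LC plates alone 5 were called, among them Hspa5 (-0.55) and Hsp90aa1 (-0.29), and Hspe1 (-0.16) was not. The immediate early genes themselves set the split and are described only: Fos averaged 30.6 CPM in rich wells and 8.24 in poor wells.

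Wells rich in heat shock counts had lower levels of 6 immediate early genes and higher levels of 0, of 16 tested, while 11.3% of all genes tested differed (6.05% higher, 5.24% lower). Zfp36l2 had 296, 358 and 470 CPM in rich wells and 371, 496 and 530 CPM in poor wells (-0.39 ± 0.05, adjusted p = 9.76e-07). Klf6 had 14.4, 23.4 and 34.0 CPM in rich wells and 29.8, 36.1 and 43.8 CPM in poor wells (-0.65 ± 0.15, adjusted p = 0.00159). Both were lower in rich wells on 8 of 8 plates, and their arms overlapped across plates. Btg2 (-0.73 ± 0.23), Zfp36 (-0.53 ± 0.18), Ier3 (-0.51 ± 0.16) and Jun (-0.43 ± 0.12) were lower too. Jun lost its call without LC187, LC188 or LC190, Ier3 without LC189, LCE409 or LCE410, Btg2 without LC187, LC188, LC190 or LCE410, and Zfp36 without any 1 of the LC plates or LCE408. On LCE plates alone 0 members were called: Btg2 differed by 0.13 and Zfp36 by 0.24, with the opposite sign, and Jun was not tested. On LC plates alone 6 were called, of which 5 are among the genes above and the other is Dusp2 (-0.51), while Ier3 had an adjusted p of 0.106 in edgeR.

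Depth moved with both splits. The mean percentile of a well's total count within its plate was 39.4 in immediate-early-rich and 59.7 in immediate-early-poor wells, and 58.5 in heat-shock-rich and 43.1 in heat-shock-poor wells. On LCE plates the mean FSC percentile was 44.4 in immediate-early-rich and 56.6 in immediate-early-poor wells, and the mean CD48 percentile was 45.6 in immediate-early-rich and 56.4 in immediate-early-poor wells. Erythroid-marked cells numbered 1 in immediate-early-rich and 13 in immediate-early-poor wells. With splits corrected for the total count, 3 heat shock genes (Hsp90aa1, Hspa5 and Hspd1) were lower in immediate-early-rich wells and 2 immediate early genes (Zfp36l2 and Klf6) in heat-shock-rich wells. Stem and progenitor markers summed to 1193 to 1409 CPM in immediate-early-rich and 844 to 1216 CPM in immediate-early-poor sums. They summed to 850.5 to 1289 CPM in heat-shock-rich and 1147 to 1468 CPM in heat-shock-poor sums. The part of these measures and markers in the results was not tested.

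**Figure D5:**
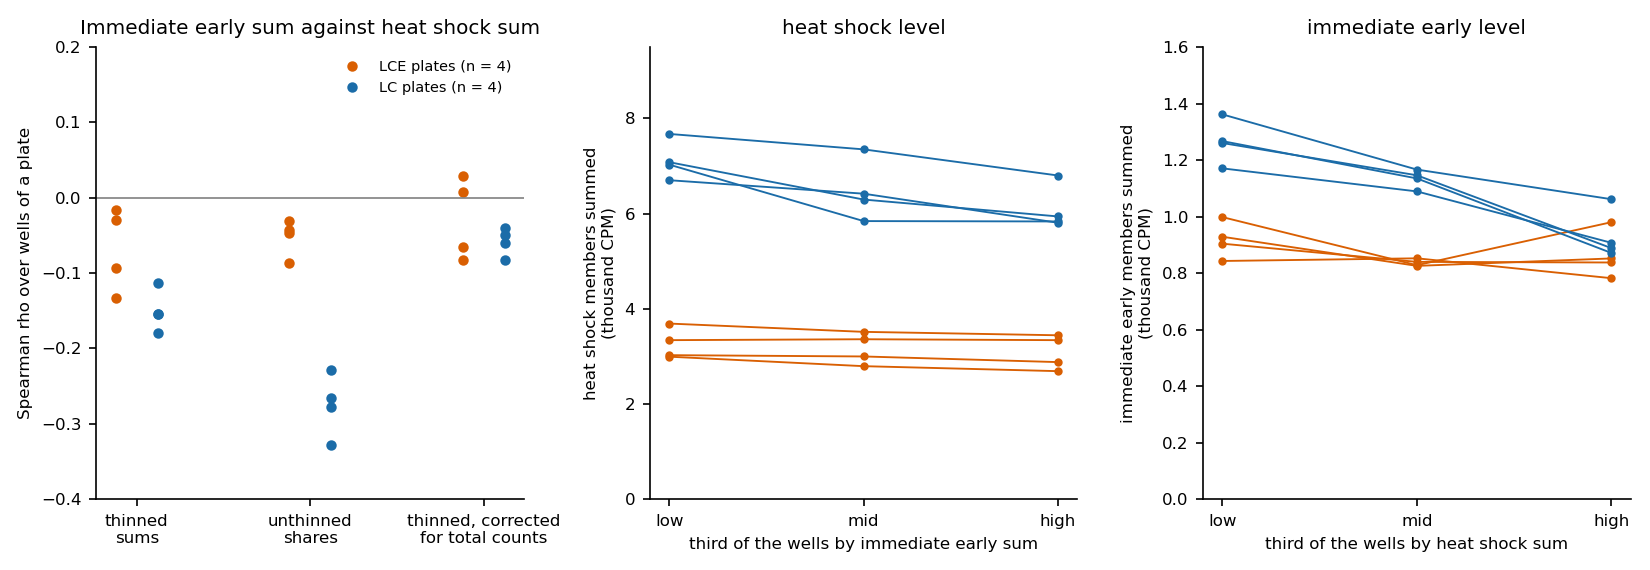
Left, Spearman correlation over the wells of each plate between the immediate early and heat shock sums, with 1 point per plate. Middle and right, the summed level of each group over terciles of wells by the other group's sum, with 1 line per plate; the heat shock level is lower in the high than in the low tercile on 8 of 8 plates.

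Outside the members, the 10 genes that differed most with the same sign on every plate in immediate-early-rich wells included class II antigen presentation genes. Cd74, the invariant chain, averaged 127 ± 56.9 CPM in rich and 42.1 ± 23.4 CPM in poor wells (SD, n = 8 plates; log2 difference 1.69 ± 0.14), and H2-Aa differed by 1.10 ± 0.12. The interferon-induced Oas2 (1.54 ± 0.27), the chemokine Ccl4 (1.17 ± 0.22), Trp53inp1 (1.13 ± 0.20) and 2610001A08Rik (1.31 ± 0.19) were higher as well. Lower were the granule protease Ctsg, with 198 ± 166 CPM in rich and 409.1 ± 325 CPM in poor wells (-1.07 ± 0.07), Ms4a3 of granulocyte and monocyte progenitors (-1.23 ± 0.13), the mitochondrial folate enzyme Mthfd2 (-1.17 ± 0.22) and Snora73b (-1.03 ± 0.23). In heat-shock-rich wells Mpo, the azurophil granule peroxidase, averaged 1006 ± 825 CPM, against 524 ± 415 CPM in heat-shock-poor wells (0.91 ± 0.05). Sdf2l1 (1.20 ± 0.13), Mthfd2 (1.17 ± 0.21), Hp (1.10 ± 0.17) and Hspe1-ps3 (1.001 ± 0.18), a pseudogene close in sequence to Hspe1 that could share its counts, were higher too. Cd74 (-1.002 ± 0.15), Acrbp (-1.03 ± 0.24), Ddx4 (-0.98 ± 0.26), Rnf122 (-0.92 ± 0.20) and Bpifc (-0.91 ± 0.28) were lower in heat-shock-rich wells.

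In the related lists the changes were as follows. In immediate-early-rich wells 0 of 20 other immediate early genes were lower and 4 higher, among them Nfkbiz (1.18 ± 0.26), Irf1 (0.37 ± 0.11) and the survival factor Mcl1 (0.29 ± 0.09). In the same wells 8 of 34 other chaperones were lower, among them Hsp90b1 (-0.37 ± 0.06), Ptges3 (-0.29 ± 0.06) and Fkbp4 (-0.28 ± 0.07), and 5 of 13 unfolded protein response genes, among them Calr (-0.50 ± 0.05), Sdf2l1 (-0.92 ± 0.14) and Pdia6 (-0.32 ± 0.07). In heat-shock-rich wells 9 of 34 other chaperones and 6 of 14 unfolded protein response genes were higher, among them Hsp90b1 (0.53 ± 0.06) and Calr (0.64 ± 0.06), while the ubiquitin gene Ubb (-0.14 ± 0.04) was lower. Among the other immediate early genes Myc (0.23 ± 0.07) was higher and Nfkbiz (-0.74 ± 0.25) lower there.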

How the data were processed

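The authors deposited whole-number counts per gene and well for 8 CEL-seq2 plates and the sorter's fluorescence intensity per well, on a linear scale per the file headers. The submitters' processing notes name GRCh38, a human build, while the identifiers are mouse Ensembl identifiers; for aligner, counter, strand use and molecular tags, details were not given in the sources used here. Wells needed 1000 counts, 500 genes and under 20% mitochondrial counts. Counts were summed per plate and arm and tested with edgeR 4.0.16 in R 4.3.3 (quasi-likelihood test with a plate block, TMM scaling, genes kept by filterByExpr, Benjamini-Hochberg adjustment over all tested genes, threshold 0.05); the arms of a plate come from the same plate and deviated together within their set (correlation 0.192 to 0.560). Plates have no block in the comparison of sets. The script was tested on simulated data. All comparisons reuse the same cells. Members past the threshold are named, as are 10 other genes for rich and poor wells. Of each related list, up to 3 genes per direction with the smallest adjusted p are named for the sets, GFP, CD135, Sca1 and the rich and poor wells. Genes of these lists were also called by forward scatter, by side scatter and in the joint fit, and are not named here. The members and lists were chosen with earlier results of these data known. Alternatives covered DESeq2 1.42.0, size factors, filters, thinning, arms, lineages, plates and pairing; ranks corrected for total counts, the correlation without Zfp36l2 and all alternatives of the joint fit were chosen after seeing the data.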

Additional observations from a re-analysis of the deposited data

Results flagged for a closer look

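Within the 4 plates of a set, 5 plate levels lay apart from the other 3. Hsp90aa1 had 2208 CPM on LC187, against 1761 to 1821 on the other LC plates, and Jund had 30.7 CPM on LC188, against 46.1 to 48.1. Fosb had 1.09 CPM on LCE409, Atf3 0.476 CPM on LCE408 and Hspa1b 0.939 CPM on LCE410, each against 0 on the other LCE plates. These last values rest on 1 to 3 counts.

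Of the differences per plate, on the log2(CPM + 1) scale, 2 lay apart from the others. Btg2 was higher in GFP-low wells by 3.08 on LCE410, against 0.51 to 1.38 on the other 7 plates. Hsp90aa1 differed by 0.083 between immediate-early-rich and immediate-early-poor wells on LCE407, against -0.41 to -0.21 on the others. In all 72 groups of plate levels and 55 sets of plate differences were examined, and chance marks about 1 in 20.

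Between the sets of plates, 2 differences by CD135 were unlike in the fit with a term for the set, of 25 members tested. That of Zfp36l2 was lower on LCE than on LC plates by -0.33, and that of Hspa5 was higher on LCE plates by 0.55. Of all genes in that fit, 71 of 10390 were unlike. By GFP, CD150 and Sca1 no member was unlike, against 13 of 10364, 72 of 10377 and 14 of 10174 genes.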

How the results depend on the processing

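The numbers of members called depended on the settings as follows, with the cause not tested unless given. For these settings, here and in the passages above, the share of all genes called is not given beside the count. A lower count of members can therefore go with fewer calls among all genes. Without the replicate block, which ignores the pairing of arms by plate, 2 members differed by GFP, 0 by CD135, 0 by Sca1, 2 by FSC, 0 by SSC, 0 heat shock genes in immediate-early-rich wells and 0 immediate early genes in heat-shock-rich wells. DESeq2 called 4 by GFP, 9 by Sca1, 1 by FSC, 0 by SSC, and 3 and 1 in the same rich wells. With cells thinned to 3000 counts, which leaves fewer counts, 1 differed by GFP, 4 by CD135, 3 by Sca1, 1 by FSC, 0 by SSC, and 2 and 2 in rich wells. With ranks corrected for total counts 11 differed by CD135, 1 by CD150, 6 by Sca1, 0 by FSC, 0 by SSC, and 3 and 2 in rich wells, and the median within-well correlation was -0.055. With LCE plates alone 5 differed by GFP, 1 by CD135, 2 by CD150, 3 by Sca1, and 1 and 0 in rich wells; jointly there were 1 by GFP, 1 by CD135, 1 by CD150 and 0 by Sca1, against 4 by Sca1 with LC plates alone. GFP corrected for scatter on LCE plates gave 4, no filter on low counts gave 2 by CD150, a split at the median gave 2 in heat-shock-rich wells and a split by the share of counts 10.

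Signs turned on LCE plates alone for Hsph1 by Sca1 (0.079), Hspa5 in immediate-early-rich wells (0.025), Btg2 (0.13) and Zfp36 (0.24) in heat-shock-rich wells and Jund by Sca1 in the joint fit (-0.014). For Zfp36l2 by FSC the sign turned with ranks corrected for total counts (0.032). Leaving out 1 plate gave 6 to 9 calls by GFP, 6 to 8 by CD135, 0 to 1 by CD150, 10 to 16 by Sca1, 7 to 9 by FSC, 0 to 2 by SSC, 0 by plate rows, 4 to 6 and 3 to 6 in rich wells and 17 to 21 between the sets. With other size factors (RLE) 95 results kept their direction and call and 2 more were called. The 11 members left untested by GFP, CD135, CD150 and Sca1 had at most 276 counts each over all kept cells, too few for the filter. Other comparisons tested other numbers, with 31 members between the sets, 23 by FSC and 22 by SSC. Fos and Ppp1r15a were not tested by FSC or SSC, nor Jun by SSC.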

Other observations

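On LCE plates, where CD48 was recorded, the thinned immediate early sum had Spearman correlations with CD48 of -0.183 to -0.137 across wells, and the heat shock sum had correlations of 0.096 to 0.166 (326 to 333 wells per plate). With cKit the correlations were -0.164 to -0.005 for the immediate early sum and -0.014 to 0.045 for the heat shock sum over 8 plates. The wells of a plate share a library, and total counts moved with both sums.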
